A study of Mus musculus with 6 samples.

Results

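The epidermal growth factor (EGF) receptor family of the duodenal villus epithelium was followed through 10 genes. They are the receptors *Egfr*, *Erbb2* and *Erbb3*, the ligands *Areg*, *Ereg*, *Hbegf*, *Tgfa*, *Btc* and *Egf*, and the receptor inhibitor *Errfi1*. The members were chosen by name, as the table rows whose Ensembl identifier maps to these symbols, and all 10 were found among 20409 features. Of the 10, 9 passed the filter on low counts and were tested, and *Egf* was too low to test. Bulk RNA-seq was available for villi of 3 wild-type (WT) and 3 double mutant (DM) mice, in which *Smad4* is lost and β-catenin is stabilized, with 1 library per mouse and with 1 male and 2 females in each group. DM mice carried Villin-CreERT2, a tamoxifen-inducible Cre active throughout the intestinal epithelium, with *Smad4* fl/fl and *Ctnnb* exon3 fl/wt on a C57BL6-enriched background. They received 4 daily injections of 0.05 g/kg tamoxifen, and the villi were taken 7 days after induction. The WT mice were uninjected littermates, so tamoxifen exposure and genotype cannot be told apart. Which alleles the WT littermates carried and the age of the mice are not given in the sources used here.

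As background, the EGF receptor is a tyrosine kinase at the cell surface that pairs with itself or with a related receptor when a ligand binds, and then relays the signal through the RAS-ERK and PI3K-AKT cascades. Its ligands are made as membrane-anchored precursors and are released by metalloproteases of the ADAM family. In the intestine the pathway is known for sustaining proliferation of the crypt stem cells and for epithelial repair, and it is held back by inhibitors that the epithelium itself makes.

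The receptor-binding part of each ligand is an EGF-like domain, a short fold held by 6 cysteines. The stretches that code for it are shown because they are what the ligands share by sequence, both those that rose in DM villi (*Ereg* and *Btc*) and those that did not pass the test (*Areg* and *Tgfa*). *Hbegf* is not shown. They were read from GENCODE transcripts of mm9, 5′ to 3′ on the coding strand, with the cysteine codons in capitals, and each is split over 2 exons. They lie at chr3:129389240-129393768 on the minus strand for *Egf*, at chr6:86213194-86219954 on the plus strand for *Tgfa* and at chr5:91572640-91573390 on the plus strand for *Areg*. Those of *Ereg* and *Btc* lie at chr5:91517522-91518137 on the plus strand and chr5:91791447-91795223 on the minus strand.
Egf: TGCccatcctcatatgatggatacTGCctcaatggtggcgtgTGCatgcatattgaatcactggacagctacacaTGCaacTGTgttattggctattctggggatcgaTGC
Tgfa: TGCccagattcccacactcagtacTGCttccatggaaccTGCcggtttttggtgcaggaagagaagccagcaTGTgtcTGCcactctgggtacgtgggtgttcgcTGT
Areg: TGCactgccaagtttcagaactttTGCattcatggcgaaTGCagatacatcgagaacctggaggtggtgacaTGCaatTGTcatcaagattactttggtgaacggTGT
Ereg: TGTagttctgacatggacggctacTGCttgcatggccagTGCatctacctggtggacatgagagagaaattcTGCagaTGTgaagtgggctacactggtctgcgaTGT
Btc: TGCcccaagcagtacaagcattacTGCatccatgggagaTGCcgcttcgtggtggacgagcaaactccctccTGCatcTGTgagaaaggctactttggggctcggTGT

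All 5 stretches hold 6 cysteine codons with the same spacing, except that 5 codons separate the second cysteine of *Egf* from the next and 4 do so in the others. The 4 stretches of 108 bases can therefore be laid over each other without gaps. *Tgfa* and *Btc* were the most alike, with 62% identical bases, and *Tgfa* and *Ereg* the least, with 45.4%. *Areg* and *Ereg*, which are neighbors in the genome, shared 53.7% of bases.

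Among the members, 2 ligands rose in DM villi, *Ereg* and *Btc*, and 3 genes fell, the ligand *Hbegf* and the receptors *Egfr* and *Erbb3*. *Areg*, *Tgfa*, *Erbb2* and *Errfi1* did not pass the test, and *Egf* was not tested. Over all 13346 genes tested, 19.7% were called higher and 17.0% lower by edgeR's quasi-likelihood test at an adjusted p under 0.05, 36.8% in either direction. The members, with 5 of 9 called, are to be read beside these shares. With scaling by library size alone the called members were 3 higher and 1 lower, and the genes called overall were 3732 higher and 1425 lower, or 28.0% and 10.7% of those tested, in place of 2632 and 2273. With RLE size factors 2 members were higher and 5 lower, against 18.9% and 18.3% of all genes. Leaving out DM mouse 1 or 3 left 1 higher member, where 15.9% and 14.2% of all genes were higher. Leaving out WT mouse 2, WT mouse 3, DM mouse 1 or DM mouse 2 left 1 lower member, where 12.6%, 13.5%, 14.7% and 11.9% of all genes were lower. The median log2 fold change (DM minus WT) was -0.26 over the 9 tested members and 0.02 over all tested genes. The values of the DM mice lay wholly above those of the WT mice for 4 tested members and wholly below for 4, against 28.1% above and 24.2% below, or 52.4% in all, of tested genes. In bulk tissue, fewer cells that express a gene and less RNA per cell cannot be told apart.

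**Figure D1:**
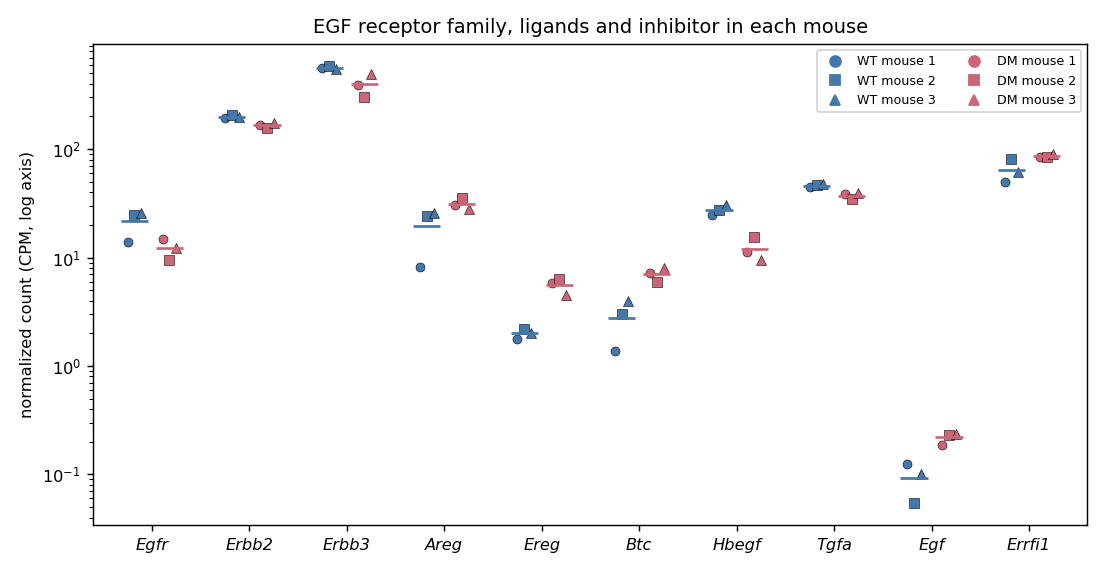
Normalized counts (CPM, log axis) of the 10 genes in each mouse, with WT in blue and DM in red, a symbol for each mouse number and a line at each group mean. DM mice sit above WT mice for *Areg*, *Ereg*, *Btc*, *Egf* and *Errfi1* and below them for *Erbb2*, *Erbb3*, *Hbegf* and *Tgfa*, and the groups overlap for *Egfr*. WT mouse 1 sits under the other WT mice for every tested member but *Erbb3*.

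The deletion was checked first. *Smad4* had 119.8, 180.1 and 144.5 CPM (read counts per library size, rescaled by TMM factors) in WT mice 1, 2 and 3 and 26.05, 36.83 and 32.13 in DM mice 1, 2 and 3. Every DM mouse lay under every WT mouse (log2 fold change -2.22, standard error 0.187, adjusted p = 0.000145, edgeR). *Ctnnb1*, counted whole and so with no view of the floxed exon, had 931.7 ± 53.58 and 841.1 ± 79.67 CPM (SD, n = 3 per group), with an adjusted p of 0.359 from the same test. Totals ran from 19678507 to 26337318 counts per library. The libraries carried the markers of their labelled tissue, with 3.61% to 4.03% of counts on 8 enterocyte markers in WT mice and 2.33% to 2.44% in DM mice, and 0.554% to 0.774% on 5 pan-epithelial markers over all mice. WT mouse 1 stood apart from the other WT mice in its cell type markers. The 8 goblet cell markers took 0.0114% of its counts, against up to 1.08% in the other WT mice and 0.494% to 0.548% in DM mice, and the 6 Paneth cell markers took 0.000721%, against up to 0.144% in WT and 0.0166% to 0.0263% in DM mice. Values without this mouse are given where they change a result.

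The receptors come first. *Egfr* (ENSMUSG00000020122), which binds all of the EGF-type ligands, is found at 16652206 to 16818161 on the plus strand of chromosome 11 in mm9. Its normalized count was 13.79, 24.75 and 25.98 CPM in WT mice 1 to 3 and 14.93, 9.554 and 12.34 CPM in DM mice 1 to 3. WT mouse 1 lay among the DM mice and the other WT mice lay above all of them, so the groups overlapped. *Egfr* fell by 0.81 on the log2 scale (standard error 0.266, adjusted p = 0.0436, edgeR), a 1.75-fold lower level. The call held in 5 of 14 alternative fits and was lost on leaving out a mouse in 5 of 6 cases. Without WT mouse 1 it was kept, at -1.05 with an adjusted p of 0.00229, and with scaling by library size alone it was lost, at -0.62 with an adjusted p of 0.115 (edgeR).

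*Erbb3* (ENSMUSG00000018166; chromosome 10, 128004579 to 128026708, minus strand) encodes a receptor with little kinase activity of its own that signals through its partners. It had 564.5, 586.5 and 544.5 CPM in WT mice and 391.6, 301.8 and 491.6 CPM in DM mice. All DM mice lay below all WT mice, with DM mouse 3 nearest to them. The log2 fold change was -0.52 (standard error 0.170, adjusted p = 0.0423, edgeR), and the call held in 6 of 14 alternative fits. Leaving out a mouse ended it in 5 of 6 cases, with adjusted p between 0.0503 and 0.11, as did scaling by library size alone (-0.32, adjusted p = 0.167, edgeR).

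*Erbb2* (ENSMUSG00000062312; chromosome 11, 98273784 to 98299030, plus strand) encodes the receptor that has no known ligand and is the favored partner of the others. Its counts were 192.4, 205.7 and 198.3 CPM in WT and 165.3, 155.9 and 175.2 CPM in DM mice. The groups did not overlap, but the log2 fold change of -0.26 (standard error 0.100) had an adjusted p of 0.0683 in edgeR's test and did not pass. It passed only with RLE size factors, with an adjusted p of 0.0487, and was -0.07 with library size alone.

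Among the ligands, the genes that rose come first. *Ereg* (ENSMUSG00000029377; chromosome 5, 91503643 to 91522675, plus strand) encodes epiregulin, which binds EGFR and ERBB4. It had 1.791, 2.176 and 2.022 CPM in WT mice and 5.774, 6.4 and 4.557 CPM in DM mice. Even the lowest DM mouse exceeded the highest WT mouse by more than the spread within either group. *Ereg* rose 2.79-fold (log2 fold change 1.48, standard error 0.252, adjusted p = 0.00266, edgeR). The call held in all 14 alternative fits, with a log2 fold change of 1.37 to 1.61 when a mouse was left out.

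*Btc* (ENSMUSG00000082361; chromosome 5, 91786287 to 91831939, minus strand) encodes betacellulin, another ligand of both EGFR and ERBB4. Its counts were 1.375, 2.992 and 3.993 CPM in WT and 7.135, 5.89 and 7.927 CPM in DM mice. WT mouse 1 was the lowest, and no WT mouse reached a DM mouse. *Btc* rose 2.52-fold (log2 fold change 1.33, standard error 0.364, adjusted p = 0.0208, edgeR), and 1.00 on the log2 scale without WT mouse 1 (adjusted p = 0.0107, edgeR). The call held in 11 of 14 alternative fits. It was lost when WT mouse 2, DM mouse 1 or DM mouse 3 was left out, with adjusted p up to 0.0706.

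*Areg* (ENSMUSG00000029378; chromosome 5, 91568641 to 91577458, plus strand) encodes amphiregulin, a ligand of EGFR. It had 8.248, 24.32 and 25.52 CPM in WT mice and 30.47, 35.3 and 28.19 CPM in DM mice. All DM mice lay above all WT mice, but WT mice 2 and 3 were close to DM mouse 3 and WT mouse 1 was far below the other WT mice. The log2 fold change was 0.70 (standard error 0.394, adjusted p = 0.211, edgeR), within the spread between mice, and it passed in 0 of 14 alternative fits. Without WT mouse 1 it was 0.33, with an adjusted p of 0.108.

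*Hbegf* (ENSMUSG00000024486; chromosome 18, 36664583 to 36675459, minus strand) encodes heparin-binding EGF-like growth factor, a ligand of EGFR and ERBB4. Its counts were 24.58, 27.36 and 30.78 CPM in WT and 11.31, 15.35 and 9.446 CPM in DM mice. Every DM mouse lay well under every WT mouse. *Hbegf* fell by 1.19 on the log2 scale (standard error 0.195, adjusted p = 0.00222, edgeR), a 2.29-fold lower level and the smallest adjusted p of the members. The call held in all 14 alternative fits, with a log2 fold change of -1.41 to -1.04 when a mouse was left out.

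*Tgfa* (ENSMUSG00000029999; chromosome 6, 86145420 to 86225151, plus strand) encodes transforming growth factor α, a ligand of EGFR. It had 44.28, 46.73 and 47.51 CPM in WT mice and 38.17, 34.51 and 39.35 CPM in DM mice. The groups did not overlap, and the log2 fold change of -0.31 (standard error 0.110) did not pass, with an adjusted p of 0.0573 from edgeR. It passed only with RLE size factors, with an adjusted p of 0.0416.

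*Egf* (ENSMUSG00000028017; chromosome 3, 129380493 to 129458240, minus strand), the ligand that gave the family its name, was at the limit of detection. It had 3, 1 and 2 counts in WT mice and 4, 5 and 5 counts in DM mice, where 3 counts correspond to 0.125 to 0.163 CPM. Summed over the mice, 14 counts in DM against 6 in WT gave a ratio of 2.27 after scaling by library, with a 95% exact interval of 0.819 to 7.21 that covers counting error only. A difference in *Egf* was not detectable at this depth.

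*Errfi1* (ENSMUSG00000028967; chromosome 4, 150228028 to 150243001, plus strand) encodes a feedback inhibitor that binds the kinase domain of EGFR. It had 50.03, 81.93 and 60.96 CPM in WT and 83.75, 84.09 and 90.28 CPM in DM mice. All DM mice lay above all WT mice, WT mouse 2 only just below them. The log2 fold change of 0.42 (standard error 0.172) had an adjusted p of 0.0875 in edgeR's test and did not pass. It passed with library size alone (0.61, adjusted p = 0.0245) and without WT mouse 2 (0.63, adjusted p = 0.0159), and it was 0.27 without WT mouse 1.

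**Figure D2:**
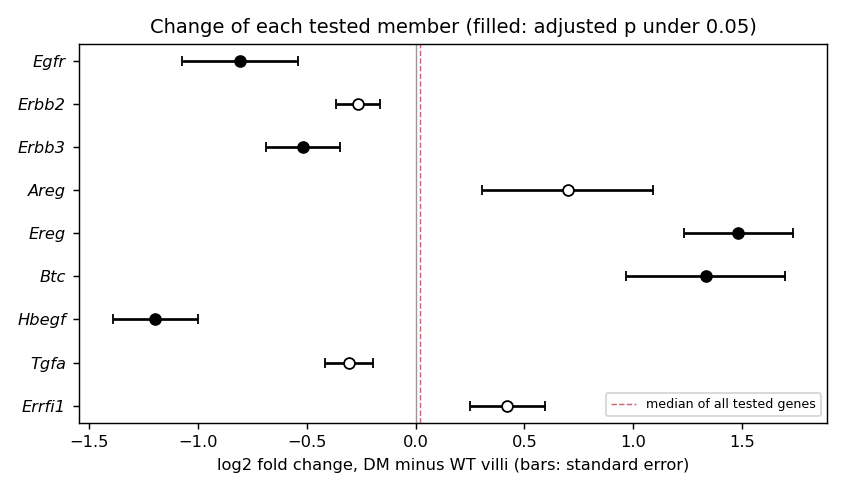
Log2 fold change (DM minus WT villi) of the 9 tested members with its standard error, filled where the adjusted p was under 0.05 and with a dashed line at the median of all tested genes, 0.02. *Ereg* (1.48) and *Btc* (1.33) lie on one side and *Hbegf* (-1.19), *Egfr* (-0.81) and *Erbb3* (-0.52) on the other.

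Without WT mouse 1, the members called were 2 higher, *Ereg* and *Btc*, and 2 lower, *Hbegf* and *Egfr*, against 20.2% higher and 17.1% lower among all genes tested in that fit. WT mouse 1 had the lowest WT value of 8 of the 9 tested members, all but *Erbb3*, as well as of the goblet, Paneth and crypt stem cell markers. The part of these markers in the member results was not tested.

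Levels of different genes were compared only after division by the exon length of each gene, as CPM per kb. In WT villi, *Erbb3* (93.9 CPM per kb) stood above *Erbb2* (38.2), and both above every other member. *Errfi1*, *Areg*, *Tgfa* and *Hbegf* followed at 17.9, 16.2, 12.3 and 11.6 CPM per kb, each overlapping its neighbor in this order. *Egfr* (1.90), *Btc* (0.997) and *Ereg* (0.483) came next, again with overlap between neighbors, and *Egf* was last at 0.0195 CPM per kb. The level of *Egfr* was thus far under that of its partners *Erbb2* and *Erbb3* in every mouse.

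In DM villi, *Erbb3* (65.7 CPM per kb) and *Erbb2* (31.8) kept the leading places. *Areg* (26.1) and *Errfi1* (24.0) overlapped each other and stood above *Tgfa* (9.93), which stood above *Hbegf* (5.07). *Btc* followed at 2.50 CPM per kb, then *Ereg* (1.35) and *Egfr* (1.08), which overlapped. In every DM mouse *Btc* was above *Egfr* in level per kb, whereas in every WT mouse *Egfr* was above *Btc*.

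The mix of ligand transcripts was described by the share of each ligand in the summed level per kb of the 6 ligands. The 3 ligands encoded side by side on chromosome 5, *Areg*, *Ereg* and *Btc*, made up 26.05%, 47.72% and 47.53% of the sum in WT mice 1, 2 and 3 and 66.26%, 67.84% and 65.45% in DM mice. Every DM mouse lay above every WT mouse, and WT mouse 1 lay far below the others. These 3 are the tested ligands with a positive log2 fold change, so a larger share in DM mice follows from the grouping itself. Most of the share is *Areg*, which did not pass the test. *Hbegf* made up 34.57%, 25.15% and 26.57% in WT and 10.76%, 13.26% and 9.49% in DM mice, again without overlap. *Areg* alone was the most abundant ligand in all 3 DM mice, at 56.07% to 60.34% of the sum, and in WT mice 2 and 3, while *Tgfa* led in WT mouse 1 with 39.29%. The summed level itself overlapped between the groups, at 29.96 to 48.83 CPM per kb in WT and 41.94 to 48.78 in DM mice. *Areg*, *Ereg* and *Btc* together had 7.804 to 23.21 CPM per kb in WT and 27.45 to 33.09 in DM mice. *Tgfa* and *Hbegf* together had 22.13 to 25.6 in WT and 14.44 to 15.64 in DM mice, so the shares moved from both sides.

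**Figure D3:**
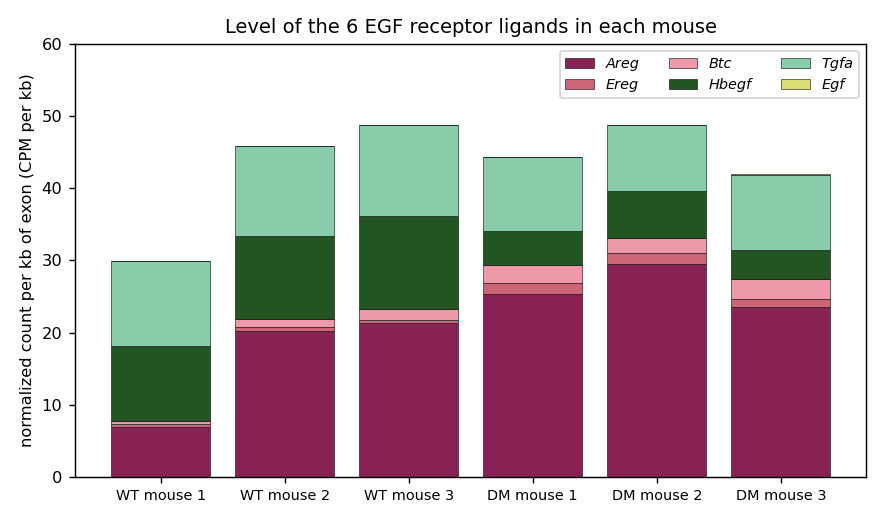
Stacked level (CPM per kb of exon) of the 6 ligands in each mouse. The red shades (*Areg*, *Ereg*, *Btc*) take 65.45% to 67.84% of the bar in DM mice and 26.05% to 47.72% in WT mice, and the green shades (*Hbegf*, *Tgfa*) take most of the rest.

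The 3 genes *Ereg*, *Areg* and *Btc* belong to a run of EGF-family ligand genes on chromosome 5 that begins with *Epgn* and spans 375.4 kb. *Epgn*, which encodes epigen, had at most 2 counts in any mouse and was not tested. Within this run and 300 kb on either side, a window set after the values were seen, 17 genes are annotated, 10 of them have a row in the table and 6 were tested. Of the 6, 3 rose (*Ereg*, *Btc* and the pseudogene *Gm15710*) and 0 fell, beside 19.7% higher and 17.0% lower among all tested genes, and *Ereg* and *Btc* are members already counted above. *Gm15710* rose by 1.60 on the log2 scale (adjusted p = 0.0179, edgeR) and spans *Btc* on the same strand without sharing exon bases with it. For *Parm1*, beyond *Btc*, the log2 difference of 1.53 did not pass (adjusted p = 0.114), with WT values of 7.769 ± 5.333 CPM and DM values of 22.27 ± 2.082 CPM (SD, n = 3). *Mthfd2l*, on the other side of *Epgn*, had 0.20 (adjusted p = 0.564). Genes within this window are not independent of each other, and no test of the window as a unit was made.

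**Figure D4:**
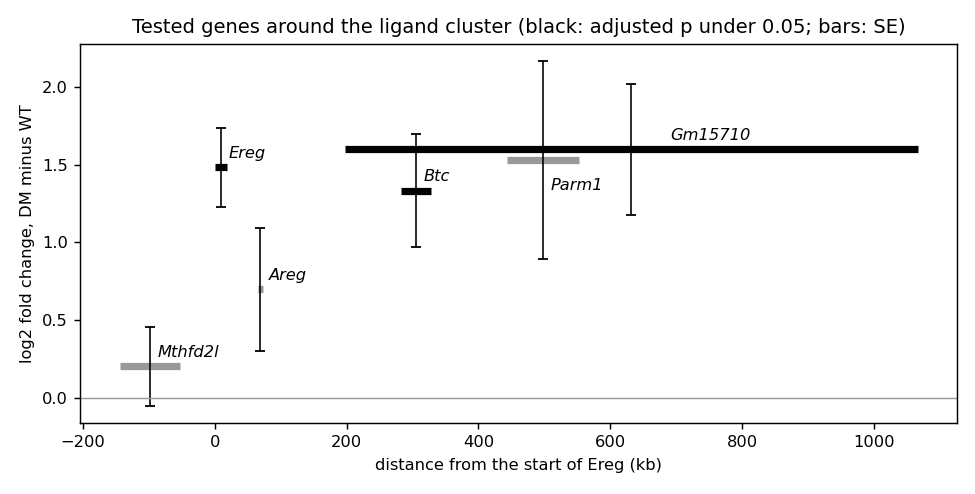
Log2 fold change (DM minus WT) of the 6 tested genes by distance in kb from the start of *Ereg*, with bars spanning each gene, whiskers for the standard error and black for an adjusted p under 0.05. *Ereg*, *Btc* and *Gm15710* are black, and *Areg*, *Parm1* and *Mthfd2l* are gray.

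RefSeq promoter windows of 300 bases (GRCm38.p6) were at hand for 7 members, with 9 windows in all, and were searched on both strands for the core of TCF/LEF sites, CTTTGAT, and the core of SMAD sites, CAGAC, which do not contain each other. The members without a window were *Erbb3*, *Ereg* and *Hbegf*. The TCF/LEF core was in 0 of the 9 windows and in 3.73% of 32851 windows of all genes. The SMAD core was in 4 of the 9, those of *Egf*, *Egfr* and *Tgfa*, and in 49.6% of all windows. These matches describe letters only, and letters outside the windows were not searched.

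Other members of the wider family were scarce. *Nrg1*, a neuregulin that binds ERBB3, had at most 2 counts in any mouse. *Nrg4*, a neuregulin that binds ERBB4, had 4.54, 2.883 and 0.9603 CPM in WT and 2.488, 2.365 and 3.228 CPM in DM mice, and its log2 difference of -0.06 did not pass (adjusted p = 0.934, edgeR). Its exons overlap those of other genes by 545 bases, so its counts are uncertain. *Erbb4*, *Nrg2* and *Nrg3* were not analysed here.

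Of 60 tested genes in lists of the surrounding pathway, 14 rose and 14 fell, and their median log2 fold change was -0.09. The background shares of that fit are 19.7% higher and 17.0% lower. With library size alone 19 rose and 4 fell, against 28.0% and 10.7% of all genes. The higher count was 9 without WT mouse 3, where 15.4% of all genes were higher. The lower count was 8 without WT mouse 2 or DM mouse 2, 9 without WT mouse 3 and 7 without DM mouse 3, where 12.6%, 11.9%, 13.5% and 12.3% of all genes were lower.

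The list for ligand shedding and trafficking had 9 tested genes, of which 3 rose and 1 fell, with a median log2 fold change of -0.20. Without WT mouse 1, with RLE size factors and with DESeq2, 2 fell, where 17.1%, 18.3% and 16.1% of all genes were lower. *Rhbdf1* and *Rhbdf2*, inactive rhomboid proteins that carry the sheddase ADAM17 to the cell surface, rose by 1.10 (adjusted p = 0.00276) and 0.44 (adjusted p = 0.0239) on the log2 scale in edgeR's test. *Adam9*, a metalloprotease, rose by 0.68 (adjusted p = 0.00803). *Frmd8*, which stabilizes the complex of ADAM17 with these proteins, fell by 0.59 (adjusted p = 0.00366). *Adam17* itself had 43.73 ± 2.744 CPM in WT and 38.09 ± 5.317 CPM in DM villi (SD, n = 3 each) and did not pass (adjusted p = 0.27).

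The list of proteins that restrain the receptors had 12 tested genes, with 4 higher, 4 lower and a median of -0.16. *Lrig1*, a transmembrane protein that promotes the degradation of ERBB receptors and marks stem cells in the crypt, had 8.789, 17.24 and 14 CPM in WT and 42.44, 39.66 and 43.76 CPM in DM mice. The DM mice all stood far above the WT mice, and *Lrig1* rose 3.15-fold (log2 fold change 1.66, standard error 0.224, adjusted p = 0.00103, edgeR). Its relative *Lrig3* rose by 0.78 (adjusted p = 0.0011), and *Socs5*, a suppressor of cytokine signaling that lowers EGFR, rose by 1.00 (adjusted p = 0.0279). In the other direction, *Sh3kbp1*, an adaptor of receptor internalization, fell by 1.23 (adjusted p = 0.0319), *Socs4* fell by 0.74 (adjusted p = 0.00473) and *Rnf41*, a ubiquitin ligase for ERBB3, fell by 0.52 (adjusted p = 0.0293). All of these adjusted p-values are from edgeR's test. With library size alone, 5 genes of this list were higher and 1 lower, against 28.0% and 10.7% of all genes. Without WT mouse 3 there were 2 higher and 1 lower (15.4% and 13.5% of all genes), as without DM mouse 2 (13.2% and 11.9%). Without DM mouse 3 there were 2 and 2 (14.2% and 12.3%). The lower count was 2 without WT mouse 2 (12.6% of all genes lower) and with the replicate block (13.1%).

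The list of the signal relay, from adaptors to kinases, had 24 tested genes, of which 1 rose and 7 fell, with a median of -0.14. *Akt1*, a kinase downstream of PI3K, rose by 0.58 (adjusted p = 0.0121, edgeR). *Src*, a kinase that acts with EGFR, fell from 265.1 ± 10.67 to 150.5 ± 8.371 CPM (SD, n = 3 each), or by 0.82 on the log2 scale (adjusted p = 0.000664, edgeR). *Grb2*, the adaptor that links the receptors to RAS, and *Sos2*, an exchange factor of RAS, fell by 0.47 (adjusted p = 0.00992) and 0.55 (adjusted p = 0.0122). With library size alone, which moved the median log2 fold change of all genes from 0.02 to 0.22, 3 genes of this list were higher and 1 lower, against 28.0% and 10.7% of all genes. The lower count was 4 without WT mouse 2 and 3 without DM mouse 3, where 12.6% and 12.3% of all genes were lower.

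The list of ERK feedback and target genes had 14 tested genes, of which 6 rose and 2 fell, and its median of 0.51 was the highest of the 4 lists. *Etv4*, an ETS transcription factor induced by ERK signaling, had 0.2499, 0.2176 and 0.5054 CPM in WT and 1.502, 2.69 and 1.804 CPM in DM mice. No WT mouse came near the DM mice, and *Etv4* rose by 2.61 on the log2 scale (standard error 0.479, adjusted p = 0.0038, edgeR) from 4 to 10 counts per WT mouse. It passed the filter on low counts through the DM mice, and it could not be tested where at least 10 counts in every library were asked for. *Etv5*, its relative, rose by 1.06 (adjusted p = 0.0277), and *Spry4*, a feedback inhibitor of receptor tyrosine kinases, rose by 1.83 (adjusted p = 0.0173). *Spry4* had 19, 29 and 8 counts in WT mice 1 to 3 and needed the DM mice to pass the filter on low counts. It too could not be tested where at least 10 counts in every library were asked for. The phosphatases *Dusp5* and *Dusp6*, which act on ERK, fell by 1.02 (adjusted p = 0.00277) and 0.69 (adjusted p = 0.0497). The higher count was 3 without DM mouse 1, where 15.9% of all genes were higher. The lower count was 1 without WT mouse 2 or 3 or DM mouse 2 or 3. In those fits 12.6%, 13.5%, 11.9% and 12.3% of all genes were lower. It was also 1 with the replicate block (13.1% of all genes lower), sex as a covariate (17.2%), limma-voom (17.0%), library size alone (10.7%) or no filter on low counts (10.6%).

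**Figure D5:**
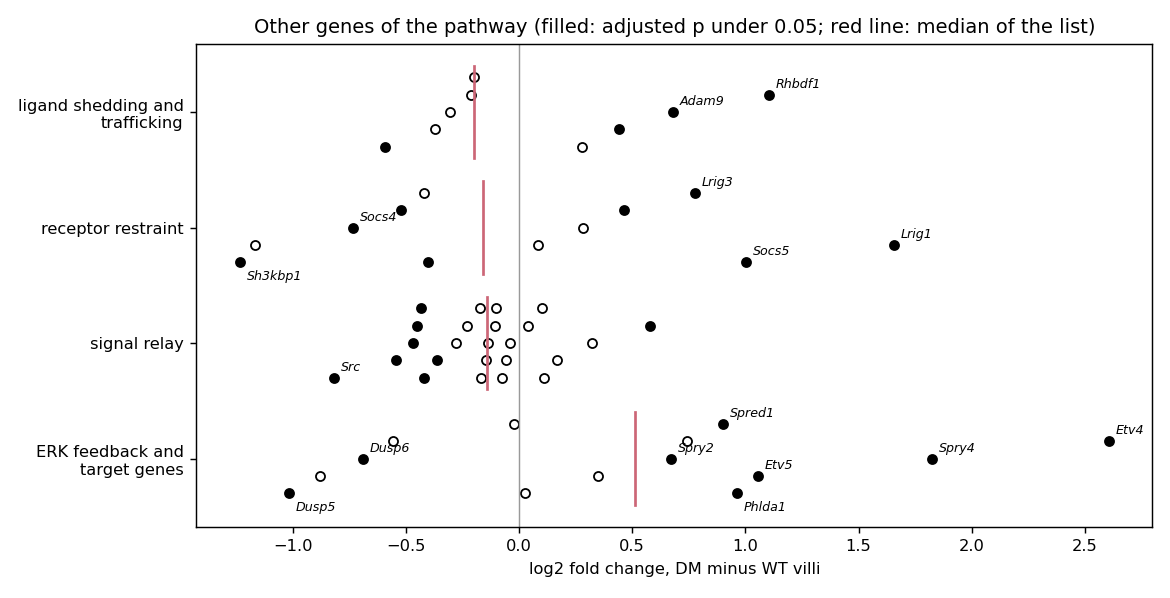
Log2 fold change (DM minus WT villi) of the tested genes in 4 pathway lists, filled where the adjusted p was under 0.05, with a red line at the median of each list. The medians are -0.20, -0.16, -0.14 and 0.51 from top to bottom, and filled points lie on both sides of 0 in every list.

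Markers of the villus and crypt compartments differed between the same libraries. The 5 villus tip markers took 0.358% to 0.449% of counts in WT and 0.0840% to 0.100% in DM mice, with 4 of 5 lower, and of 8 enterocyte markers 6 were lower. The 5 crypt stem cell markers took 0.00251% to 0.0101% in WT and 0.0144% to 0.0204% in DM mice, with 2 of 5 higher. The lowest WT share was that of WT mouse 1, and the other WT mice had 0.00926% and 0.0101%. All 5 tested tuft cell markers and 5 of 6 enteroendocrine markers were lower. Of the mesenchyme markers, *Col1a2*, *Col3a1* and *Pdgfra* had at most 3 counts in every library, and the 4 markers in the table summed to at most 0.464 CPM. Lymphocyte markers overlapped between the groups, at 0.00685% to 0.0130% in WT and 0.00645% to 0.0101% in DM mice, with 2 of 6 lower. The part of these shifts in the member results was not tested.

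Across the 6 libraries, the genes whose log2 CPM followed *Hbegf* most closely were *Orai1* (Pearson's r = 0.992), *Lsm14a* (0.992) and *Kcnc1* (0.991). This is a description over libraries that differ by group, and r therefore reflects the group difference as well as the mice. *Kcnc1* averaged 0.124 CPM in DM mice, under the level of 3 counts, so its log2 values there rest largely on the prior count and its place in this order is not measured.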

How the data were processed

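Villus epithelium was stripped from the duodenum with EDTA, and poly(A)-enriched RNA was sequenced. The authors aligned the reads to mm9 with HISAT2 and counted them per gene with featureCounts; the deposited values are raw counts, neither normalized nor pooled. The strand setting and the rule for reads matching several genes are not given in the sources used here, so counts of overlapping genes are uncertain. Identifiers were matched to GENCODE annotation of mm9 (20032 of 20073 Ensembl identifiers). The other 336 features are numbered transcripts outside the annotation.

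Counts were filtered with filterByExpr, scaled by TMM and tested with glmQLFit (robust) and glmQLFTest in edgeR 4.0.16 (R 4.3.3), with p-values adjusted by Benjamini-Hochberg over the 13346 genes tested and a threshold of 0.05. A standard error is the size of the log2 fold change over the square root of its F. DESeq2 (version 1.42.0 here), which the study used, limma-voom (limma 3.58.1), other scalings and filters, a replicate block, sex and each mouse left out in turn were alternatives. The script was tested on simulated data. The members and the gene lists were chosen with earlier results of these data known. Named are all members, the other ERBB genes, and from each list up to 3 called genes in each direction, taken by size of change; *Adam17*, the genes of the chromosome 5 window and the markers named were added after their values were seen. With 3 mice per group, p-values measure the spread between these mice.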

Additional observations from a re-analysis of the deposited data

How the results depend on the processing

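Of the 126 alternative fits of a tested member (14 for each of 9), 102 kept both direction and side of the threshold, 20 lost the call, 4 gained it and 0 reversed the direction. *Ereg* and *Hbegf* were called in all 14. The 2 higher members became 1 to 2 and the 3 lower members 1 to 2 when a mouse was left out. Over all genes, 13.2% to 20.2% were higher and 11.9% to 17.1% lower in those fits. Lower members numbered 5 with RLE size factors, against 18.3% of all genes. They numbered 1 with library size alone (10.7% of all genes lower), with sex as a covariate (17.2%) and with the replicate block (13.1%). A log2 fold change over 1 left 1 lower member, and one over 2 left 0 lower and 0 higher. Scaling by library size alone raised the median log2 fold change of all genes from 0.02 to 0.22; it gave 3732 higher and 1425 lower genes, and 19 higher and 4 lower genes in the pathway lists, in place of 14 and 14. These lists had 9 to 14 higher and 7 to 15 lower genes when a mouse was left out, 6 and 2 past a log2 fold change of 1, and 1 and 0 past 2. Over all genes, 1454 were higher and 832 lower past 1, and 406 and 302 past 2. The causes were not tested. With each mouse left out, genes numbered 1812 to 2783 higher and 1630 to 2361 lower. With the longest transcript as length, 2 of 20 levels moved by more than 1 SD, to 39.7 CPM per kb for *Erbb2* in WT and 28.3 for *Errfi1* in DM villi.

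Same-numbered mice did not deviate together (r = 0.02, -0.11 and 0.01), and not every mouse correlated best with its own number. Mouse 1 was male and mice 2 and 3 female in both groups, and the paper states that replicates were matched by age and sex. With 3 mice per group these correlations cannot decide whether the numbers pair the mice. With the replicate block, 2084 genes were higher and 1750 lower, and *Egfr* (adjusted p = 0.103) and *Erbb3* (adjusted p = 0.0627, edgeR) lost their calls. Among the members, depth limits *Egf*, at 1 to 5 counts per mouse.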
